A study of Homo sapiens with 6 samples.

Results

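The p53 pathway was examined through 9 genes, UBE3A, MDM2, CDKN1A, BBC3, BAX, SESN1, TP53INP1, GDF15 and ZMAT3, in SiHa PR cells with and without P4HA3 overexpression. The genes were taken by symbol from the 60664 Ensembl genes of the deposited count table, and all 9 passed the filter on low counts that left 15130 genes for testing. SiHa is a human cervical squamous carcinoma line that carries human papillomavirus type 16, and SiHa PR are the parental cells of a highly lymph node metastatic derivative. RNA-seq was performed on 3 libraries of control cells, named only SiHa PR by the labels, and 3 libraries of cells named SiHa PR P4HA3, in which P4HA3, a collagen prolyl 4-hydroxylase subunit, was overexpressed. The study made overexpressing cells with the P4HA3 cDNA in a lentiviral pCDH vector, the labels do not say whether the control cells carried an empty vector, and all 6 libraries come from the same parental line. Nothing in the labels says that libraries of a group came from separate cultures, so that p-values measure the spread between these libraries, which may be technical.

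p53 is a transcription factor that is stabilised by DNA damage and other stress and then switches on genes for cell cycle arrest, cell death, DNA repair and metabolic control. In most cells it is held low by MDM2, a ubiquitin ligase that is itself a p53 target and so closes a negative feedback loop. In cervical cancer cells with papillomavirus, the viral E6 protein recruits the cellular ubiquitin ligase UBE3A (E6AP) to p53 and sends it for degradation, so that p53 protein is low. Papillomavirus transcripts were not analysed here, and none of the values below is a protein level.

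The p53 protein binds an element of 2 half-sites. The p53 consensus element without a spacer was searched on both strands within 3000 bases of the canonical start of each gene. Up to 3 mismatches were allowed outside the core of each half-site, which had to match. The sequences below give the best match of each of the 5 genes that held one, 5′ to 3′ on the strand of the gene, read from GRCh38. Capitals mark the 20-base element and lower case the 5 bases on either side.
ZMAT3: tcataAAACAAGTCCAGACATGCCTaggca
CDKN1A: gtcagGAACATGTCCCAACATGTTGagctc
GDF15: attgcCATCTTGCCCAGACTTGTCTcgaac
BBC3: cgcgcCTGCAAGTCCTGACTTGTCCgcggc
UBE3A: tggctGGGCATGGTGGATCATGCCTgtaat

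The ZMAT3 element (chr3:179070188-179070207, in an intron, at position 1602 from the start) matched the consensus with 0 mismatches, which held for 16 of 20046 protein-coding genes, or 0.0798%. The CDKN1A element (chr6:36676449-36676468) lay at position -2265 from the canonical start, at an exon of another CDKN1A transcript, and had 2 mismatches. The BBC3 element (chr19:47231320-47231339) lay at -140 with 3 mismatches, and the GDF15 element (chr19:18385308-18385327) at -850 with 2. The starts of both genes' longer transcripts lie further upstream, so that both elements are within the gene. The UBE3A element (chr15:25441776-25441795) was at -2771, upstream of the gene, with 3 mismatches. UBE3A is not known as a p53 target, and 16.0% of all protein-coding genes held an element with up to 3 mismatches (2.85% with up to 2), so a match is a description of the sequence only. The search found no such letters in the windows of MDM2, BAX, SESN1 and TP53INP1.

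The libraries held 21773488 to 24939948 counts in total, and P4HA3 was at 2.91 to 3.80 CPM (counts scaled to the size of the library by the TMM method) in control cells and at 1934 to 1991 CPM with overexpression, as the library names require. The number of genes called over the whole table moved strongly with single libraries. From 3147 with all 6, it fell to 781 or 534 when control replicate 1 or 2 was left out and to 904 when replicate 3 of P4HA3 overexpression was, and it rose to 5530 when replicate 1 of P4HA3 overexpression was. Of 6 smooth muscle markers, examined because the deposited growth protocol describes uterine smooth muscle, 5 were at or under 0.751 CPM in all libraries and ACTG2 ranged from 0 to 1.73 CPM, whereas the epithelial keratins KRT8, KRT17 and KRT18 ranged from 659 to 5622 CPM. The epithelial markers EPCAM and CDH1 were lower, at 4.98 to 6.13 and 8.85 to 16.6 CPM, and KRT19 was at only 0.62 to 1.22 CPM. Of the 7 epithelial markers 6 were tested, and KRT17, KRT18 and CDH1 were called lower with overexpression. CDH1 kept that call in 6 of 6 fits that left out a library and KRT17 and KRT18 in 3, all but those without replicate 1 or 2 of the control or replicate 3 of P4HA3 overexpression. The squamous basal genes KRT5 and TP63 were nearly absent, at no more than 0.188 and 0.534 CPM. PTPRC, CD3E and LYZ of the immune markers and CDH5 and VWF of the endothelial markers were at or under 0.0821 CPM, while CD14 (91.3 to 109.7 CPM in control cells) and PECAM1 (2.53 to 3.43 CPM) were detected and called lower with overexpression. In such bulk libraries, fewer cells of a kind and less RNA per cell cannot be told apart.

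With P4HA3 overexpression, the 9 genes moved in both directions. ZMAT3 and MDM2 rose, BBC3 fell, and the other 6 genes were not called. A gene is called here when its p from the quasi-likelihood test of edgeR, adjusted by Benjamini-Hochberg over all 15130 genes, is under 0.05. Across all tested genes, 9.36% were called higher and 11.4% lower, 20.8% in all. The overexpressing libraries were all above the control libraries for 4 of the 9 genes and all below them for 2, where 19.7% of all tested genes lay fully above and 20.4% fully below (40.1% in all). The median log2 fold change of the 9 genes was 0.21, against 0.01 for all tested genes.

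**Figure D1:**
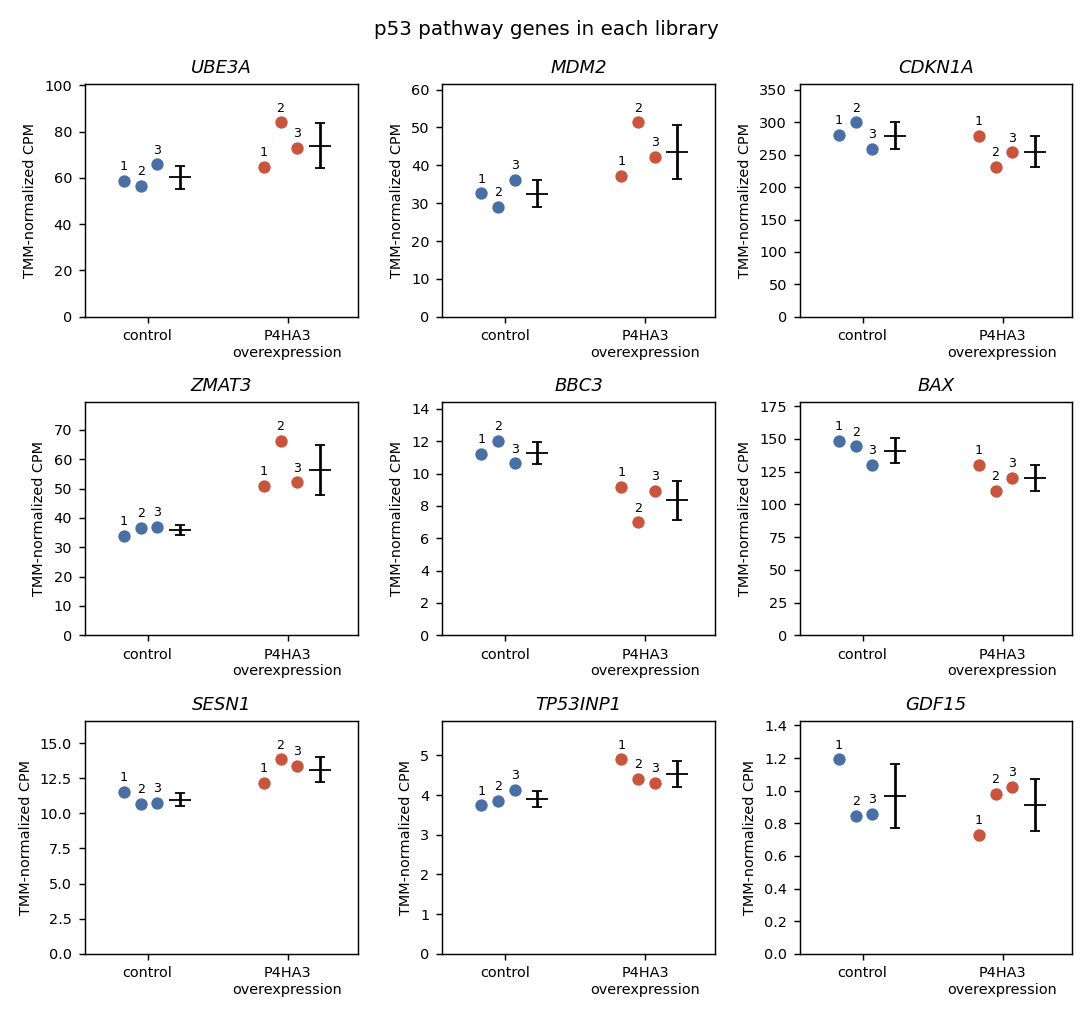
Expression of the 9 genes in each library, in TMM-normalized CPM on axes that start at 0 (points, libraries numbered by replicate, and bars, mean ± SD, n = 3). ZMAT3, MDM2, SESN1 and TP53INP1 have every overexpressing library above every control library, BBC3 and BAX have every one below, and UBE3A, CDKN1A and GDF15 overlap.

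UBE3A (ENSG00000114062, chromosome 15 of GRCh38, 25333728 to 25439051, minus strand) is the ligase that E6 uses against p53. Its expression was 58.6, 56.4 and 65.8 CPM in the control libraries and 64.8, 83.9 and 73.1 CPM in the overexpressing libraries. Replicate 1 with overexpression lay just under control replicate 3, so the groups overlapped, and replicate 2 was the highest. The log2 fold change of 0.29 (standard error 0.095, 95% interval 0.08 to 0.51) had an adjusted p of 0.0515 (edgeR), just outside the threshold. DESeq2 called it higher (0.30, adjusted p = 0.0231). Without P4HA3 overexpression replicate 1 it was 0.38 and called (adjusted p = 0.00436, edgeR). Without control replicate 3 it was 0.36 and called (adjusted p = 0.04, edgeR). It was not called without control replicate 1 or 2, or without P4HA3 overexpression replicate 2 or 3 (0.27, 0.25, 0.19 and 0.30). By limma-voom it was not called either (adjusted p = 0.0575). Of 16 alternative settings, 5 called UBE3A and 11 did not. SNHG14, an antisense RNA that shares 1822 exonic bases with UBE3A, had no more than 11 counts in a library. The strand setting of the counting is not stated, so reads in such shared bases are uncertain, here and for the overlaps named below.

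The partners of UBE3A and other targets of E6 were taken as a list of 8 genes, which included its E2 enzyme UBE2L3, its binding partner HERC2 and the polarity genes SCRIB and DLG1. By edgeR, 0 of the 8 were called, against 20.8% of all tested genes. At an unadjusted p under 0.05, 3 of the 8 were higher and 0 lower. DESeq2 called 2 of them higher and limma-voom called 0, and the median log2 fold change was 0.10. With the replicate number as a block, edgeR called 3 of the 8 higher and 0 lower. Of the related ligases UBE3B and UBE3C, UBE3C was called higher, from 178 ± 8.38 to 203 ± 8.21 CPM (SD, n = 3), a call kept in 2 of 6 fits that left out a library, those without control replicate 3 or P4HA3 overexpression replicate 1.

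MDM2 (ENSG00000135679, chromosome 12, 68808177 to 68845544, plus strand) had 32.6, 29.0 and 36.1 CPM in the control libraries and 37.3, 51.3 and 42.2 CPM with overexpression. All overexpressing libraries were above all control libraries, but replicate 1 was only slightly above control replicate 3. The mean rose 1.34-fold, from 32.6 ± 3.54 to 43.6 ± 7.13 CPM (SD, n = 3), or 0.42 ± 0.118 on the log2 scale (standard error, adjusted p = 0.0327, edgeR). The call rested on single libraries. It was lost without replicate 1 or 2 of the control, or without replicate 2 or 3 of P4HA3 overexpression, and the log2 fold change was then 0.42, 0.35, 0.29 and 0.45. The gene of carboxypeptidase M, on the opposite strand, overlaps 133 exonic bases of MDM2 and was itself called lower, with a log2 fold change of -0.34.

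MDM2 works with MDM4, a relative without strong ligase activity of its own, and MDM4 had a log2 fold change of 0.03 (standard error 0.127) and was not called (adjusted p = 0.867, edgeR). Of 15 tested regulators of p53, MDM4 included, 5 were called higher and 0 lower, where 9.36% and 11.4% of all tested genes were. At an unadjusted p under 0.05 there were 7 and 0, with 6 and 0 called by DESeq2 and 5 and 0 by limma-voom. The median of the 15 regulators was 0.23. Leaving out replicate 1 or 2 of the control, or replicate 3 of P4HA3 overexpression, left 0 of them called. The 5 were CREBBP, which acetylates p53, with a log2 fold change of 0.34, the deubiquitinase USP7 at 0.26, the DNA damage mediator TP53BP1 at 0.23, the checkpoint kinase CHEK1 at 0.27 and PPM1D at 0.26. PPM1D, the phosphatase that ends the p53 response and a p53 target as well, went from 25.8 ± 1.31 to 31.0 ± 2.42 CPM (SD, n = 3). The p53 relatives TP63 and TP73 were too low to be tested.

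ZMAT3 (ENSG00000172667, chromosome 3, 178960121 to 179072215, minus strand), a zinc finger RNA-binding protein that shapes splicing in p53-driven tumour suppression, had the smallest adjusted p of the 9 genes. Its expression was 33.8, 36.7 and 36.9 CPM in the control libraries and 50.8, 66.2 and 52.1 CPM with overexpression. The control libraries lay within a narrow range, and even the lowest overexpressing library was well above them. The mean rose 1.57-fold, from 35.8 ± 1.74 to 56.4 ± 8.55 CPM (SD, n = 3), and the log2 fold change was 0.65 (standard error 0.1, 95% interval 0.43 to 0.88, adjusted p = 0.00316, edgeR). It was called in each of the 6 fits that left out 1 library, with a log2 fold change between 0.52 and 0.72. This gene also carried the exact match to the p53 element given above. Of its relatives, ZMAT2 and ZMAT5 were at 0.14 and -0.18 on the log2 scale and were not called.

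CDKN1A (ENSG00000124762, chromosome 6, 36676460 to 36687337, plus strand) encodes p21, the cyclin-dependent kinase inhibitor through which p53 stops the cell cycle. It had 280, 300 and 259 CPM in the control libraries and 279, 231 and 254 CPM with overexpression. The groups overlapped, because replicate 1 with overexpression lay among the controls. The log2 fold change was -0.13 (standard error 0.0787, 95% interval -0.31 to 0.04, adjusted p = 0.23, edgeR), an interval that leaves out a rise of the size measured for ZMAT3. Without P4HA3 overexpression replicate 1 it was -0.20 and called (adjusted p = 0.0399, edgeR), the only 1 of 16 alternative settings that called CDKN1A. DINOL, an antisense RNA at the start of CDKN1A, had 0 counts in each control library and at most 2 with overexpression.

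Of the other CDK inhibitors, 1 of 6 was called higher and 1 lower, against 0 higher and 1 lower by DESeq2 and by limma-voom. Among all tested genes, edgeR called 9.36% higher and 11.4% lower. CDKN1B, which encodes p27, went from 52.5 ± 3.17 to 60.3 ± 0.564 CPM (SD, n = 3). CDKN2A, which encodes p16 and is typically abundant in cells with papillomavirus because E7 removes RB, went from 414 ± 26.7 to 344 ± 33.0 CPM (SD, n = 3), or -0.27 on the log2 scale. CDKN1B kept its call only without P4HA3 overexpression replicate 1, and CDKN2A only without that library or control replicate 3.

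BBC3 (ENSG00000105327, chromosome 19, 47220822 to 47232766, minus strand) encodes PUMA, a BH3-only protein that starts apoptosis by freeing BAX and BAK. Its expression was 11.2, 12.02 and 10.6 CPM in the control libraries and 9.19, 6.98 and 8.91 CPM with overexpression. All overexpressing libraries were below all controls, and replicate 2 was the lowest. The mean fell to 0.743 of the control level, from 11.3 ± 0.698 to 8.36 ± 1.2 CPM (SD, n = 3), or -0.43 ± 0.118 on the log2 scale (standard error, adjusted p = 0.0306, edgeR). As for MDM2, the call was lost without replicate 1 or 2 of the control, or without replicate 2 or 3 of P4HA3 overexpression, with log2 fold changes of -0.43, -0.38, -0.32 and -0.48.

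BAX (ENSG00000087088, chromosome 19, 48954815 to 48961798, plus strand), the pore-forming protein of the mitochondrial outer membrane, had 148, 144 and 130 CPM in the control libraries and 130, 111 and 120 CPM with overexpression. The groups did not overlap, although control replicate 3 and P4HA3 overexpression replicate 1 were nearly equal. The log2 fold change of -0.23 (standard error 0.0736, 95% interval -0.39 to -0.07) had an adjusted p of 0.051 (edgeR). BAX was called by DESeq2 (adjusted p = 0.0372) and without control replicate 3 or P4HA3 overexpression replicate 1 (adjusted p = 0.0313 and 0.00777, edgeR). Of 16 alternative settings, 7 called BAX and 9 did not.

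Of 12 tested genes of the BCL2 family outside these members, 0 were called higher and 2 lower, where 9.36% and 11.4% of all tested genes were. At an unadjusted p under 0.05 there were 1 and 4, and DESeq2 and limma-voom each called 0 higher. The median was -0.09. The 2 called lower were the BH3-only genes BAD, from 105 ± 8.76 to 80.0 ± 10.5 CPM (SD, n = 3), and BIK, from 3.43 ± 0.894 to 2.02 ± 0.17 CPM (SD, n = 3). BAD kept its call in 3 of 6 fits that left out a library, all but those without control replicate 1 or 2 or replicate 3 of P4HA3 overexpression, and BIK in 4, all but those without control replicate 1 or P4HA3 overexpression replicate 3. The survival genes BCL2L1 and MCL1 had log2 fold changes of -0.08 and 0.04 and were not called.

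SESN1 (ENSG00000080546, chromosome 6, 108984309 to 109094846, minus strand), a sestrin that restrains mTORC1, had 11.5, 10.7 and 10.7 CPM in the control libraries and 12.2, 13.8 and 13.4 CPM with overexpression. The groups did not overlap, and the log2 fold change of 0.26 (standard error 0.0918) had an adjusted p of 0.0705 (edgeR). Without P4HA3 overexpression replicate 1 it was 0.31 and called (adjusted p = 0.0284, edgeR), the only 1 of 16 alternative settings that called SESN1. A long non-coding gene on the opposite strand (ENSG00000271730) overlaps 363 exonic bases of SESN1, 243 of them coding, and its counts were 38, 27 and 36 in the control libraries and 12, 16 and 12 with overexpression. The other sestrins, SESN2 and SESN3, had log2 fold changes of -0.05 and 0.25 and were not called.

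TP53INP1 (ENSG00000164938, chromosome 8, 94925972 to 94949378, minus strand), which promotes autophagy and p53-dependent cell death, was low at 3.74, 3.85 and 4.13 CPM in the control libraries and 4.89, 4.40 and 4.30 CPM with overexpression. These values rest on 82 to 114 counts per library. Exons of NDUFAF6 on the opposite strand overlap 225 exonic bases of the gene. The groups did not overlap, but the log2 fold change of 0.21 (95% interval -0.05 to 0.48) was not called (adjusted p = 0.212, edgeR). Its relative TP53INP2 was called lower, from 27.5 ± 0.432 to 22.0 ± 0.828 CPM (SD, n = 3), a call kept in 3 of 6 fits that left out a library and lost without replicate 1 or 2 of the control or replicate 3 of P4HA3 overexpression.

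GDF15 (ENSG00000130513, chromosome 19, 18374731 to 18389176, plus strand), a secreted stress hormone that both p53 and the ATF4 pathway can induce, was the lowest of the 9 genes in CPM. It had 29, 18 and 21 counts in the control libraries and 17, 22 and 26 counts with overexpression, or between 0.730 and 1.19 CPM. The groups overlapped, and a log2 fold change of -0.08 with a 95% interval from -0.62 to 0.45 means that a difference was not detectable at this depth (adjusted p = 0.817, edgeR).

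Levels were compared between genes per kilobase of canonical transcript. In control cells BAX was the highest at 177 ± 11.9 CPM per kilobase (SD, n = 3), followed by CDKN1A at 132 ± 9.75 and, far below, by UBE3A at 6.91 ± 0.562 and BBC3 at 6.11 ± 0.378. MDM2 at 4.35 ± 0.472, ZMAT3 at 4.01 ± 0.195, SESN1 at 1.94 ± 0.0859, GDF15 at 0.804 ± 0.163 and TP53INP1 at 0.697 ± 0.0359 CPM per kilobase came next. The control libraries of neighbouring genes overlapped between UBE3A and BBC3, between MDM2 and ZMAT3 and between GDF15 and TP53INP1, so these pairs were not ordered beyond their spread. ZMAT3 lay below BBC3 in every control library and, at 5.68 to 7.41 CPM per kilobase against 3.78 to 4.98 for BBC3, above it in every overexpressing library. These levels are not corrected for the GC trend described below, and the transcripts of ZMAT3 and BBC3 have 38.2% and 69.7% GC. With that trend removed the log2 fold changes were 0.39 and -0.11, and whether the order still changes was not tested.

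The direction of the 9 genes followed the GC content of their transcripts. The canonical transcripts of ZMAT3, TP53INP1, MDM2, UBE3A and SESN1 had between 38.2% and 40.6% GC, and all 5 had positive log2 fold changes. Those of CDKN1A, BAX, GDF15 and BBC3 had between 57.3% and 69.7% GC, and all 4 had negative ones. The same trend ran through all genes. Among 2851 tested genes with less than 41% GC the median log2 fold change was 0.23, with 20.9% called higher and 0.982% lower. Among 3842 genes with more than 57% GC it was -0.20, with 1.17% called higher and 29.2% lower. The log2 fold change and GC content had a Spearman's rho of -0.58 across 15107 genes, which are no independent replicates, and within the groups the rho of single libraries with GC content ranged from -0.54 to 0.47.

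With the trend of each library on GC content and transcript length removed, 1 of the 9 genes was called higher and 0 lower, against 10.6% and 7.94% of all tested genes. At an unadjusted p under 0.05 these were 2 and 0, and the median of the 9 genes was 0.05 instead of 0.21, against 0.02 for all tested genes. ZMAT3 remained called at 0.39 ± 0.0561 on the log2 scale (standard error, adjusted p = 0.00105, edgeR). It was also called in each of 6 corrected fits that left out 1 library, between 0.35 and 0.42. MDM2 was at 0.19 (95% interval 0.05 to 0.32, adjusted p = 0.0559, edgeR) and BBC3 at -0.11 (95% interval -0.29 to 0.08, adjusted p = 0.4, edgeR). UBE3A was at 0.05, SESN1 at 0.07 and TP53INP1 at 0.01, while CDKN1A (0.03), BAX (0.01) and GDF15 (0.18) changed sign, and none of these 6 was called. Any change with overexpression that itself runs with GC content or length is removed as well by the correction, and whether the trend is technical was not tested.

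**Figure D2:**
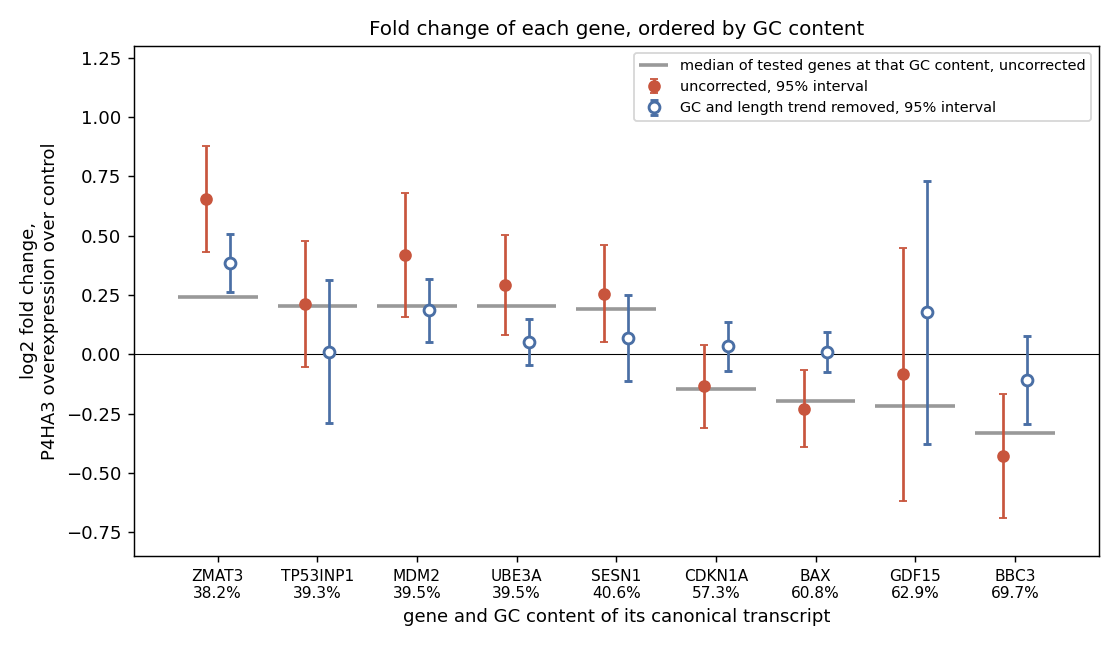
Log2 fold change of the 9 genes, P4HA3 overexpression over control, ordered by the GC content of the canonical transcript, with filled points for the uncorrected fit, open points for the fit with the GC and length trend of each library removed (bars, 95% intervals), and grey lines for the running median of all tested genes at that GC content. ZMAT3 stays clear of 0 in both fits (0.65 and 0.39), while BBC3 goes from -0.43 to -0.11.

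Because of the shared trend, likeness between patterns is given only as a description. Over the 6 libraries, the genes of at least 1 CPM most like CDKN1A were COPRS, MRPS34 and MTX1 (Pearson's r of log2 CPM between 0.996 and 0.999), and 355 genes had an r above 0.95. Among those most like MDM2 were DCBLD2 and USP12 (r of 0.997 for both), and 808 genes had an r above 0.95. Among the members, MDM2 had an r of 0.99 with UBE3A and -0.95 with CDKN1A, values that share the same libraries and their GC trends.

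A wider set of 40 other p53 targets moved in both directions too. All 40 were tested, and 6 were called higher and 3 lower, where 9.36% and 11.4% of all tested genes were. Their median log2 fold change was 0.05, against 0.01 for all tested genes. Of 10 targets linked to cell cycle arrest, 4 were called higher and 0 lower (at an unadjusted p under 0.05, 5 and 0; 0 lower by DESeq2 and limma-voom). GADD45A, a growth arrest and DNA damage gene, rose by 0.53 on the log2 scale, from 8.18 ± 1.08 to 11.8 ± 1.21 CPM (SD, n = 3). BTG2, an antiproliferative regulator of mRNA decay, rose from 13.5 ± 1.2 to 17.3 ± 1.76 CPM. PRDM1, a transcriptional repressor, rose from 11.9 ± 1.15 to 15.6 ± 1.62 CPM and the cyclin CCNG2 from 36.7 ± 1.65 to 44.3 ± 2.92 CPM (SD, n = 3 for each). The cyclin CCNG1, a well-known p53 target, was at only 0.711 to 1.35 CPM in these cells and was not called.

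Of 10 targets linked to cell death, among them PMAIP1, FAS, TNFRSF10B and APAF1, 0 were called in either direction by edgeR, DESeq2 and limma-voom, and 0 had an unadjusted p under 0.05. Their log2 fold changes lay between -0.11 and 0.16, and with the GC and length trend removed 1 of the 10, the nuclease AEN, was called higher (0.22). Of 13 targets linked to metabolism and autophagy, 1 was called higher and 3 lower, where 9.36% and 11.4% of all tested genes were. TIGAR, which lowers glycolytic flux, rose with a log2 fold change of 0.35. ORAI3, a calcium channel subunit, fell by 0.66 on the log2 scale (adjusted p = 0.00412, edgeR), from 8.47 ± 0.194 to 5.34 ± 0.51 CPM (SD, n = 3). The lysosomal fucosidase FUCA1 fell from 80.1 ± 0.546 to 65.5 ± 3.05 CPM and the mitochondrial glutaminase GLS2 from 5.31 ± 0.515 to 3.71 ± 0.394 CPM (SD, n = 3). ORAI3 shares 1397 of its 2641 exonic bases with a non-coding gene on the same strand and GLS2 shares 3194 of 4141 with SPRYD4 on the other, so that both counts are uncertain. The same limit holds for TIGAR, which shares 1711 of 9444 with a protein-coding gene on the same strand. Among the called genes above, TP53BP1 shares 3732 of 12976 with TUBGCP4 and BAD 404 of 1708 with GPR137, both on the other strand. KRT18 shares 525 of 3069 with KRT8, CDKN2A 593 of 3885 with CDKN2B-AS1 and CHEK1 751 of 5600 with a non-coding gene, also on the other strand. BCL2L2, named below, shares 815 of 4840 with BCL2L2-PABPN1 on the same strand. Of 7 targets linked to DNA repair, all had positive log2 fold changes (median 0.37) but only POLH, a translesion polymerase, was called, from 31.9 ± 0.673 to 37.2 ± 1.65 CPM (SD, n = 3). The DNA repair list had a median GC content of 39.9%, and with the GC and length trend removed its median was 0.13 with 0 of 7 called (3 higher and 0 lower at an unadjusted p under 0.05).

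With that trend removed, 5 of the 40 targets were called higher and 5 lower, where 10.6% and 7.94% of all tested genes were. GADD45A (0.60), BTG2 (0.40), PRDM1 (0.31), ORAI3 (-0.46), FUCA1 (-0.27) and GLS2 (-0.43) were among the targets called. CCNG2, TIGAR and POLH were not called there, at 0.09, 0.15 and 0.11 on the log2 scale. When libraries were left out 1 at a time from the uncorrected fit, ORAI3 kept its call in 6 of 6 fits, GADD45A in 5, all but that without control replicate 2, and FUCA1 in 4, all but those without control replicate 1 or 2. GLS2, PRDM1, CCNG2 and TIGAR kept theirs in 2, and BTG2 and POLH in 1. Each of these 6 lost its call without replicate 1 or 2 of the control and without replicate 3 of P4HA3 overexpression. Among the regulators, CREBBP, USP7 and TP53BP1 kept theirs in 3, all but those without replicate 1 or 2 of the control or replicate 3 of P4HA3 overexpression, and CHEK1 and PPM1D in 2. The regulators CREBBP and USP7 also remained called with the trend removed (0.38 and 0.22), whereas TP53BP1, CHEK1 and PPM1D did not (0.10, 0.12 and 0.17). With EP300 called higher and CHEK2 lower (-0.20), the corrected counts of the 15 regulators were 3 higher and 1 lower, with a median of 0.06. Of the genes named above from the other lists, BIK, CDKN1B, UBE3C and TP53INP2 were called in the corrected fit too. So were the markers CDH1 (-0.79), KRT18 (-0.20), CD14 (-0.91) and PECAM1 (-1.06), all lower. BAD (-0.09), CDKN2A (-0.07) and KRT17 (-0.08) were not called there. The corrected fit called 3 of the 6 CDK inhibitors higher and 0 lower, CDKN1C (0.33) and CDKN2D (0.29) beside CDKN1B. Of the 12 BCL2 family genes it called 1 higher, the survival gene BCL2L2 (0.24), and 2 lower, BIK and BID (-0.21), with a median of -0.01. Of the 8 partners of UBE3A and other targets of E6 it called 1 higher, HERC2 (0.20), and 0 lower, with a median of 0.10.

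**Figure D3:**
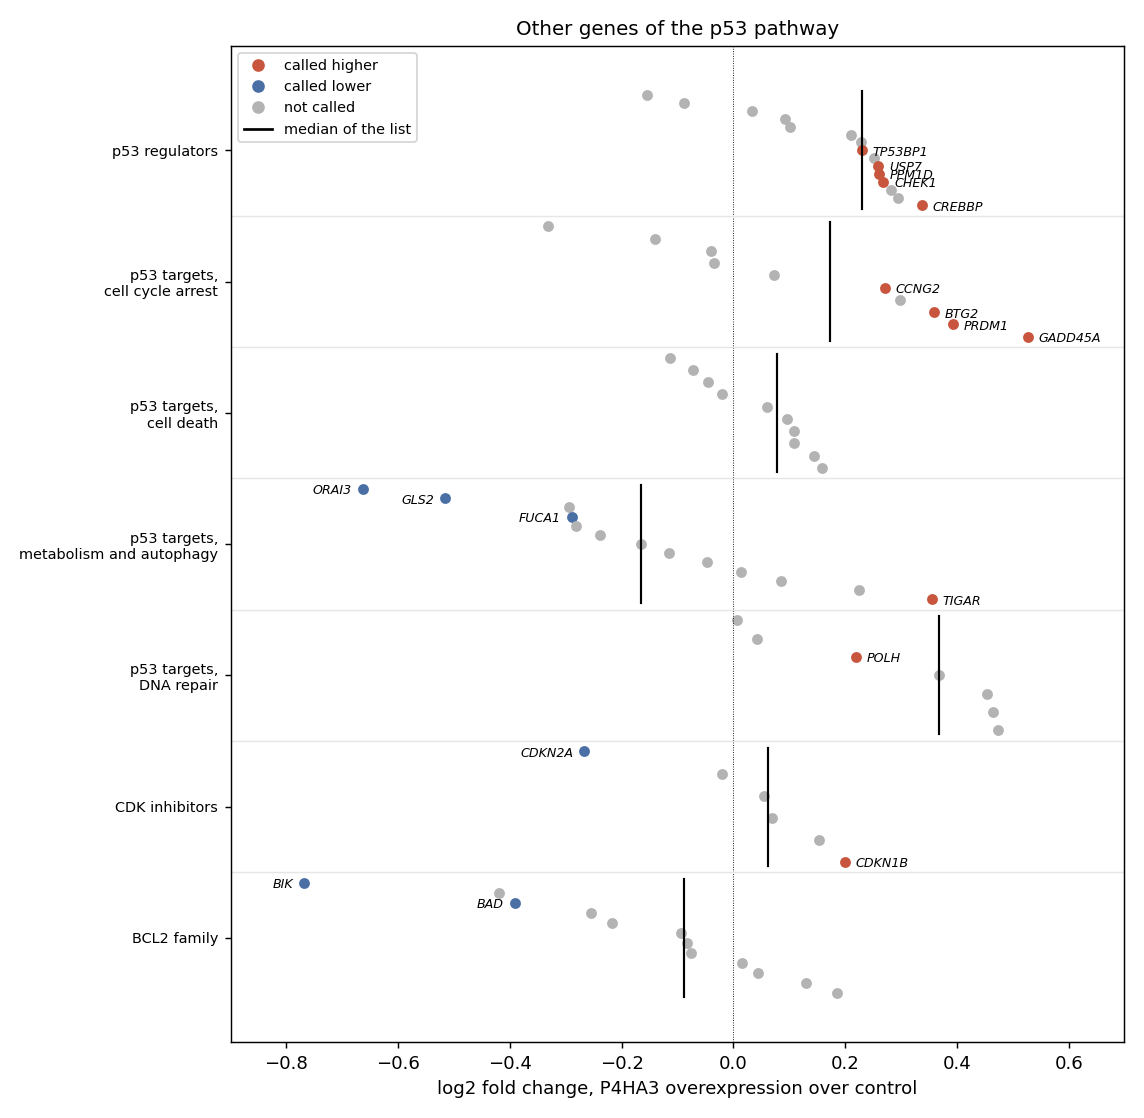
Log2 fold change, P4HA3 overexpression over control, of the other tested genes of the p53 pathway, grouped by role, each point a gene coloured by its call (red, higher, blue, lower, grey, not called) and each vertical bar the median of a list. Calls lie on both sides of 0, with GADD45A the highest at 0.53 and BIK the lowest at -0.77, and none among the 10 cell death targets.

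SLC7A11, the cystine antiporter subunit whose transcription p53 is known to repress, went from 13.1 ± 1.42 to 26.7 ± 9.35 CPM (SD, n = 3). Its log2 fold change was 1.03 (adjusted p = 0.00958, edgeR), and 0.69 with the GC and length trend removed. Without control replicate 2 the log2 fold change of SLC7A11 was 1.00 and missed the threshold (adjusted p = 0.0735, edgeR). Without P4HA3 overexpression replicate 2, its highest library at 37.4 CPM, it was 0.71 and called (adjusted p = 0.000335, edgeR).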

How the data were processed

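Per the study's methods, mRNA was selected by its poly-A tail, the second cDNA strand was marked with dUTP and removed, and paired ends were sequenced on a DNBSEQ-T7. The authors aligned reads to GRCh38 and counted them per gene with HTSeq. The supplementary methods name STAR as the aligner while the submitters' processing notes name HISAT2, and the sources used here do not settle which made the file. The deposited values are raw counts for 60664 genes, and 60463 matched the GENCODE annotation used for symbols, positions and GC content. For genes near 1 CPM, counting error limits the precision.

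The counts were fitted with edgeR 4.0.16 in R 4.3.3 (filterByExpr with a minimum count of 10, TMM, glmQLFTest, two-sided, Benjamini-Hochberg adjustment). Standard errors are the log2 fold change divided by the root of F. Alternatives used DESeq2 1.42.0, limma 3.58.1 (voom), other normalizations and filters, each library left out, the replicate number as a block, and an offset for each library's smooth trend on GC content and transcript length (mgcv 1.9.3). Leaving out libraries under that correction was added after seeing the data. The fit and correction were tested on simulated data. The members and gene lists were chosen with earlier results of these data known. Named genes are the 9 members, P4HA3, SLC7A11, the 3 genes most like CDKN1A and MDM2 and, from each list, up to 4 called genes with the smallest adjusted p. Other genes of the lists and overlapping genes were named after their values were seen. Of the regulators and of the genes most like MDM2, 1 gene each is not reported here.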

Additional observations from a re-analysis of the deposited data

How the results depend on the processing

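Against 3147 genes called, 2 members called higher and 1 lower, and 6 other p53 targets higher and 3 lower, library sizes only and a minimum of 10 counts in every library each called 2 members lower. DESeq2 and no filter each called 3 members higher, with UBE3A, and 2 lower, and no filter called 10 targets higher. At an adjusted p under 0.01 there were 728 genes, 1 member higher and 0 lower, and 0 targets higher. The GC and length correction called 1 member higher and 0 lower and 5 targets lower. It moved the share of higher calls over all genes from 45% to 57.1%.

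Left out 1 at a time, the libraries gave 534 to 5530 genes, 1 to 4 members higher and 0 to 3 lower, and 0 to 10 targets higher and 1 to 6 lower. Under the correction as well, an alternative added after seeing the data, they gave 1484, 1440 and 1880 genes without control replicates 1, 2 and 3, and 3654, 2361 and 1630 without P4HA3 overexpression replicates 1, 2 and 3. Members were then 1 or 2 higher and 0 lower, and targets 3 to 7 higher and 3 to 5 lower. MDM2 was called there only without P4HA3 overexpression replicate 1 (adjusted p = 0.0403, edgeR). ZMAT3 was called under each of these alternatives.

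The correlations of same-numbered deviations (0.33, -0.08 and 0.02) lay within the range of those between different numbers (-0.41 to 0.38). Pairing by replicate number was therefore not evident, but these values cannot exclude it. With the replicate block, 4313 genes, 3 members higher and 2 lower and 9 targets higher were called. With the replicate block and the correction there were 3793 genes, 2 members higher and 0 lower, and 7 targets higher and 5 lower. The 2 members were ZMAT3 and MDM2, the latter at 0.19 (adjusted p = 0.0314, edgeR).

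Log2 fold changes changed sign under the correction for CDKN1A (0.0344), BAX (0.00998) and GDF15 (0.177), with the replicate block and the correction at 0.0346, 0.0101 and 0.173. With single libraries left out, that of GDF15 ranged from -0.18 to 0.10, positive when replicate 1 of either group was left out (0.0996 for the control, 0.0505 for P4HA3 overexpression). Its 17 to 29 counts per library limit what can be detected.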
